A study of Mus musculus with 2 samples.

Results

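The genes described here encode the ligands, receptors and targets of parathyroid hormone-related protein (PTHrP) and Indian hedgehog signalling. They were chosen by name, as *Pthlh*, *Pth1r*, *Ihh*, *Ptch1*, *Smo*, *Gli1* and *Hhip*, and all 7 were found among the 32285 genes of both libraries. The cells came from femurs of C57BL/6J mice aged 7 weeks. One group was untreated, and the other received 3 injections of calcitriol (1,25-dihydroxyvitamin D3, the hormone form of vitamin D) at 2.5 μg/kg, with the femurs taken 24 h after the last injection. In each group the femurs of 6 mice were pooled into 1 library, so a difference between the groups has no replicate check and no p-value is given. The epiphyses had been cut off, the marrow flushed out and cells carrying CD45, a surface protein of blood cells, depleted before droplets were formed.

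In growth cartilage, PTHrP acts through the receptor PTH1R on chondrocytes and delays their enlargement (hypertrophy), while Indian hedgehog is made by chondrocytes that are leaving proliferation and sustains the production of PTHrP, which closes a feedback loop. Hedgehog ligands bind the receptor Patched1, which then no longer holds back the membrane protein Smoothened, and the transcription factors of the GLI family become active. *Gli1*, *Ptch1* and *Hhip* are transcribed in response, and both PTCH1 and the ligand-binding protein HHIP restrain the signal. PTH1R also receives parathyroid hormone in osteoblasts and osteocytes.

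The untreated library held 70266983 UMIs (unique molecular identifiers, 1 for each captured mRNA molecule) on 6076 barcodes, and the calcitriol library held 60392557 UMIs on 4562 barcodes. After the filters, 4370 and 3693 cells were kept, with medians of 11064 and 12258 UMIs per cell. The barcode sequences of 8 kept cells occurred in both libraries. Haemoglobin transcripts made up 30.7% of the kept UMIs in the untreated and 6.10% in the calcitriol library, and erythroid-like cells numbered 2307 and 433. Of the kept cells, 154 (3.52%) and 112 (3.03%) were called doublets and were kept in. Up to ties, these numbers were set by an assumed rate of 0.8% per 1000 cells and are not a measured share.

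Classes were named from marker lists. The growth plate chondrocyte-like class (141 untreated and 239 calcitriol cells) counted 12 of 12 chondrocyte and 7 of 7 growth plate markers. The superficial articular chondrocyte-like class (216 and 598 cells) counted 4 of 5 of its own markers, including *Prg4* (lubricin), and the *Notum* and *Sfrp5* chondrocyte-like class (87 and 218 cells) counted 3 of 3. Of the 12 chondrocyte markers, however, the superficial class counted 3 and the *Notum* and *Sfrp5* class 4. The superficial class also counted 2 of 3 *Notum* and *Sfrp5* and 2 of 4 synovial lining markers. The fibroblast-like class (437 and 664 cells) counted 7 of 8 fibroblast markers. The osteoblast-like class (351 and 333 cells) joined a cluster led by *Postn* and *Tnn* and a cluster led by *Bglap* and *Bglap2*. The osteocyte-like class (98 and 218 cells) counted 5 of 6 osteocyte but also 6 of 11 osteoblast markers, and 31 of its 98 untreated and 96 of its 218 calcitriol cells held no UMI of *Dmp1*, *Mepe* or *Phex*, so the label fits only some of its cells. A class was sampled with different cell numbers in the libraries, and the values below are levels per UMI within a class, not amounts per femur.

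The genes lie on GRCm38 (mm10) at chr6:147252101-147264183 (*Pthlh*, minus strand), chr9:110722085-110747145 (*Pth1r*, minus), chr1:74945315-74951672 (*Ihh*, minus), chr13:63508328-63573598 (*Ptch1*, minus), chr6:29735503-29761365 (*Smo*, plus), chr10:127329882-127341974 (*Gli1*, minus) and chr8:79965851-80058006 (*Hhip*, minus). RefSeq promoter windows were matched for 6 of the 7 genes, all but *Gli1*, in the build GRCm38.p6. The 250 bases before the RefSeq start were searched on both strands for the cyclic AMP response element TGACGTCA, the GLI motif GACCACCCA and the nuclear receptor half-sites AGGTCA and GGTTCA. These starts can differ from the ends of the gene spans above. The windows of *Pthlh* (chr6:147264014-147264263) and *Ptch1* (chr13:63565736-63565985) and some of *Pth1r* lie partly or wholly inside those spans. The cyclic AMP response element was found in 1.55% of 32851 windows of all genes, and among the 6 matched genes only in *Hhip*, 75 bases before its start. The GLI motif was found in 0.225% of all windows and in none of the 6 genes, and AGGTCA in 14.0% and in none. GGTTCA was found in 8.85% and in *Pthlh* alone, 88 bases before its RefSeq start, a place inside the gene span given above. These letters are a description of the windows and say nothing of binding. The windows of *Hhip*, at chr8:80058009-80058258, and of *Ihh*, at chr1:74951673-74951922, both on the minus strand, are shown 5′ to 3′, with the cyclic AMP response element in capitals.
Hhip: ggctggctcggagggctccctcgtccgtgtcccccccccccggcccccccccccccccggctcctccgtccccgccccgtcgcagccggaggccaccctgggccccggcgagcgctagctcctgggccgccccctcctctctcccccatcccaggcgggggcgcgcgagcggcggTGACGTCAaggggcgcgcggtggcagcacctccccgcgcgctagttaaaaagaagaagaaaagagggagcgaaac
Ihh: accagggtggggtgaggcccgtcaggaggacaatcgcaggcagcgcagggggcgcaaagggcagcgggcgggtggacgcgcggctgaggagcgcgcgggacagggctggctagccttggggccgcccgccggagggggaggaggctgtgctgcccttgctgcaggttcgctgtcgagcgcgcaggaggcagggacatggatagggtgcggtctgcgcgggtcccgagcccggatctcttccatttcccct

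All levels are in CPM, the UMIs of a gene summed over the cells of a class, divided by all UMIs of these cells and scaled by 1000000. Brackets give exact 95% intervals, which cover counting error only. Since the libraries were made from the 3′ ends of transcripts, 1 molecule gave 1 UMI whatever its length.

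**Figure D1:**
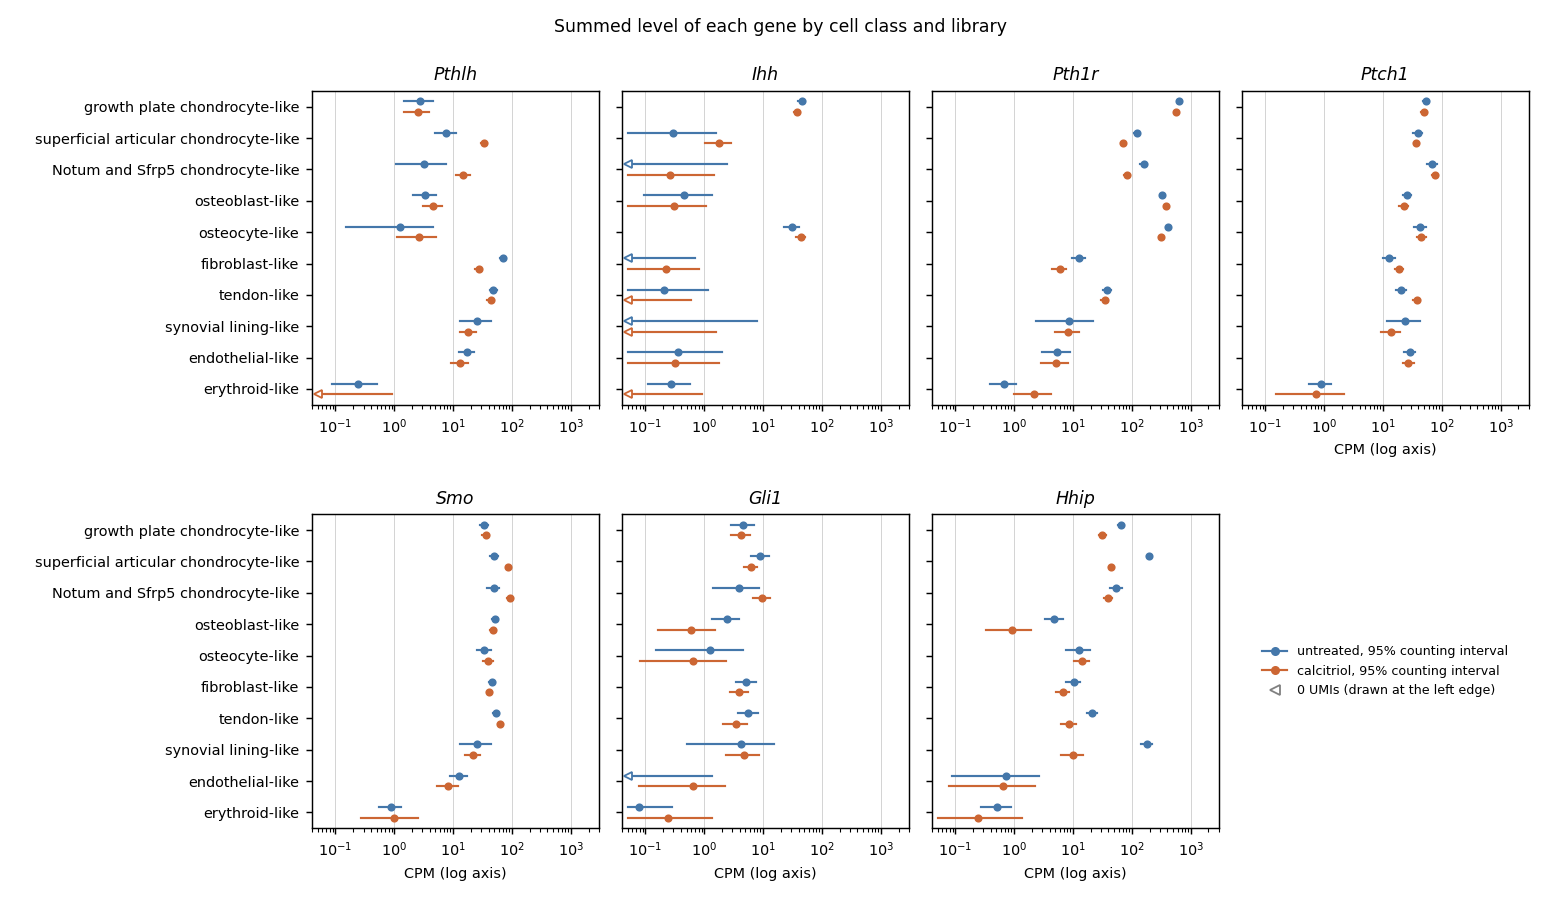
Level of each gene (CPM, log axis) in 10 cell classes of the untreated (blue) and calcitriol (orange) library, with exact 95% counting intervals and open triangles at the left edge for 0 UMIs. *Ihh* stands out in growth plate chondrocyte-like and osteocyte-like cells alone, and *Hhip* in superficial articular chondrocyte-like cells stands at 199 CPM untreated and 44.5 CPM with calcitriol.

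*Pthlh*, the gene of PTHrP, was highest in fibroblast-like and tendon-like cells in the untreated library, and in tendon-like and superficial articular chondrocyte-like cells among classes of over 50 cells with calcitriol. It was low in growth plate cartilage in both. In fibroblast-like cells, 377 UMIs (70.3 CPM [63.3, 77.7]) were counted in the untreated and 241 UMIs (27.3 CPM [23.9, 30.9]) in the calcitriol library. In superficial articular chondrocyte-like cells, 26 UMIs (7.54 CPM [4.92, 11]) were counted untreated and 325 (33.7 CPM [30.1, 37.6]) with calcitriol. Neither pair of intervals overlapped, and the classes, far apart untreated with fibroblast-like cells higher, had overlapping intervals with calcitriol.

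The log2 ratio of calcitriol to untreated was −1.36 [−1.60, −1.13] for *Pthlh* in fibroblast-like cells and 2.16 [1.58, 2.80] in superficial articular chondrocyte-like cells. In the latter, 19 of 216 untreated cells held a *Pthlh* UMI (8.80%), as did 101 of 598 cells with calcitriol (16.9%), and in the former 22.4% and 16.6% of the cells did. Erythroid-like cells, which should lack the gene, gave 3 of 2307 untreated (0.130%) and 0 of 433 calcitriol cells. The *Notum* and *Sfrp5* chondrocyte-like class was higher with calcitriol as well, from 5 UMIs (3.25 CPM) to 57 UMIs (14.8 CPM), with a log2 ratio of 2.18 [0.88, 3.86].

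Tendon-like cells gave 231 *Pthlh* UMIs (47.9 CPM) untreated and 266 (43.3 CPM) with calcitriol, a log2 ratio of −0.15 [−0.40, 0.12]. This sum joined clusters that went opposite ways, with −0.55 [−0.89, −0.22] in the cells led by *Angptl7* and *Kera* and 1.88 [0.60, 3.43] in those led by *Chodl* and *Mstn* (6 and 31 UMIs). With every cell at 2000 UMIs it was 1.0 [0.14, 1.93], and in the *Angptl7* and *Kera* cluster 1.67 [0.34, 3.25], so the direction in tendon-like cells depended on this setting. Synovial lining-like cells gave 12 UMIs (25.5 CPM) and 42 (18.0 CPM), with overlapping intervals. Growth plate chondrocyte-like cells gave 13 UMIs (2.71 CPM) and 19 (2.48 CPM). Osteoblast-like cells stood at 3.33 and 4.51 CPM and osteocyte-like cells at 1.25 and 2.63 CPM, which leaves the classes with the most *Pth1r* among those with the least *Pthlh*. Among endothelial-like cells, *Pthlh* stood at 40.7 CPM [31.6, 51.7] in the 75 cells led by *Ccl21a* and *Lyve1*, a lymphatic endothelial marker, over both libraries, against 4.89 CPM [3.03, 7.48] in the 432 cells led by *Fabp4* and *Flt1*.

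Finer clustering placed *Pthlh* more closely. Of the fibroblast-like cells, those led by *Mfap5* and *Fbn1*, genes of microfibrils, held 369 UMIs (90.7 CPM) untreated and 226 (35.3 CPM) with calcitriol, whereas those led by the complement genes *C3* and *C4b* held 8 (6.24 CPM) and 15 (6.15 CPM). The difference between the libraries was thus seen in the first cluster, with a log2 ratio of −1.36. Fibroblast-like cells with a UMI of *Pi16*, a marker of an adventitial fibroblast population, gave 71.2 and 19.6 CPM, and those without it 70.0 and 29.1 CPM. The superficial articular class fell into a cluster led by *Cytl1* and *Inhba* (5.48 and 20.7 CPM) and a cluster led by *Msmp* and *Cytl1* (11.6 and 51.6 CPM), both higher with calcitriol. Beside 445 cells of that class, the *Cytl1* and *Inhba* cluster held 31 *Notum* and *Sfrp5* chondrocyte-like and 5 osteocyte-like cells.

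Few cells carried much of the *Pthlh* signal. In untreated fibroblast-like cells, the 5 cells with the most UMIs held 45.4% of the total, against 29.5% in the calcitriol library. In superficial articular chondrocyte-like cells with calcitriol, the 5 top cells held 30.8%. The share was largest in tendon-like cells, at 59.3% untreated, where 1 cell held 51 of 231 UMIs, and 39.5% with calcitriol. Without the top cell of each library, the log2 ratios were −1.31 in fibroblast-like, 2.29 in superficial articular chondrocyte-like and 0.01 [−0.28, 0.30] in tendon-like cells.

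Markers of other cells moved with these values. None of the markers summed here was at 0 UMIs except *Pi16* in untreated superficial cells. The 6 erythroid markers were all past a log2 ratio of −1 with calcitriol in the superficial articular class (19203 to 4978 CPM summed) and in the fibroblast-like class (26961 to 8897 CPM). Of the 5 superficial articular markers 2 were past a log2 ratio of 1 in fibroblast-like cells, and they summed to 3083 CPM in untreated and 6085 CPM in calcitriol fibroblast-like cells, and the 8 fibroblast markers to 209 and 135 CPM in the superficial class. In the *Notum* and *Sfrp5* class, 3 of the 5 superficial articular markers were past a log2 ratio of 1 (1139 to 3063 CPM) and 3 of the 12 chondrocyte markers past −1 (40876 to 25461 CPM). Their part in the differences of *Pthlh* was not tested.

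*Ihh*, the gene of Indian hedgehog, was found almost only in growth plate chondrocyte-like and osteocyte-like cells. The former gave 218 UMIs (45.4 CPM [39.6, 51.8]) untreated and 290 (37.8 CPM [33.6, 42.4]) with calcitriol. The latter gave 49 UMIs (30.6 CPM [22.7, 40.5]) and 134 (44.0 CPM [36.9, 52.1]). The intervals of the libraries overlapped in both classes, as did those of the classes in the calcitriol library. Superficial articular chondrocyte-like cells gave 1 and 17 UMIs, and each other class at most 7 in a library.

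An *Ihh* UMI was found in 23 of 141 untreated (16.3%) and 37 of 239 calcitriol (15.5%) growth plate chondrocyte-like cells, and in 18.4% and 21.6% of the osteocyte-like cells. The shares in erythroid-like cells were 0.303% and 0 of 433. The log2 ratio was −0.26 [−0.52, −0.00] in growth plate chondrocyte-like and 0.52 [0.04, 1.02] in osteocyte-like cells. The 5 growth plate cells with the most *Ihh* UMIs carried 81.7% of the sum untreated and 61.0% with calcitriol, so the growth plate ratio rests on a few cells. In osteocyte-like cells with calcitriol the 5 top cells carried 35.8%. Without the top cell of each library the osteocyte-like log2 ratio was 0.59 [0.06, 1.15].

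Within the growth plate class, *Ihh* followed *Col10a1*, the collagen of hypertrophic cartilage. The 60 cells with an *Ihh* UMI carried a *Col10a1* UMI in 80.0% of cases, against 23.4% of the 320 cells without, and *Panx3*, another prehypertrophic and hypertrophic gene, in 91.7% against 48.8%. The level of *Pth1r* was 1187 CPM in the cells with and 430 CPM in the cells without *Ihh*. *Gli1* went the other way, with 0 UMIs in the 60 cells, where a share up to 5.96% (exact upper limit) remains possible, and 54 UMIs in 14.1% of the 320. *Hhip* stood at 7.74 against 54.4 CPM and was found in 13.3% against 44.7% of the cells, and *Ptch1* stood at 27.6 CPM [21.7, 34.6] against 58.1 CPM [53.4, 63.1], in 55.0% and 59.1% of the cells. Within the libraries, *Hhip* was found in 17.4% against 53.4% of the untreated and 10.8% against 39.6% of the calcitriol cells with and without *Ihh*, and *Gli1* in 0 of 23 and 0 of 37 cells with *Ihh*.

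The cells with *Ihh* were deeper, with a median of 46556.5 UMIs against 29284.5. At 2000 UMIs in every cell, *Hhip* was found in 1.67% and 9.46%, *Ptch1* in 8.33% and 9.78%, and *Pth1r* in 91.7% and 37.5%. *Gli1* was found in 0% and 2.52%, too few to compare at that depth. Thus the ligand was detected beside much receptor for PTHrP, and the hedgehog targets *Gli1* and *Hhip* mostly in other growth plate cells. *Pthlh* was found in 5.0% of the cells of either kind.

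**Figure D2:**
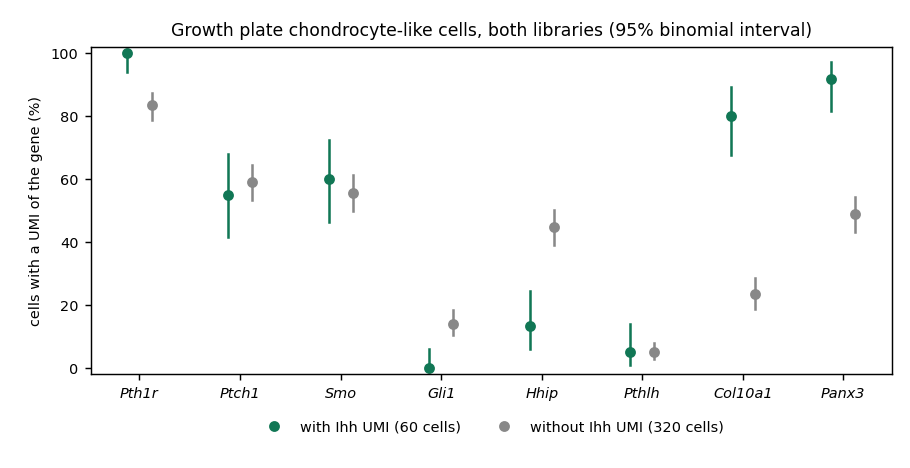
Share of growth plate chondrocyte-like cells of both libraries with a UMI of each gene (%), for the 60 cells with an *Ihh* UMI (green) and the 320 without (grey), with exact 95% binomial intervals. *Gli1* is at 0 in the cells with *Ihh* and at 14.1% in the others, and *Col10a1* at 80.0% and 23.4%.

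Finer clustering separated these cells. A cluster led by *Serpina1a* and *Matn3* (107 and 174 cells) held only 15 *Ihh* UMIs in each library (4.56 and 3.09 CPM), and a cluster led by *Col10a1* and *Nrgn* (53 and 90 cells) held 223 and 291 (108 and 87.5 CPM). The log2 ratio in the latter was −0.30 [−0.56, −0.04], and in growth plate cells with a *Col10a1* UMI −0.47 [−0.74, −0.20]. The *Col10a1* cluster also held 19 untreated and 25 calcitriol cells of the osteocyte-like class.

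The remaining osteocyte-like cells fell mainly into a cluster led by *Mepe* and *Dmp1* (24 and 67 cells), genes of the osteocyte matrix, and an osteoblast-like cluster led by *Tnfrsf11b* and *Spp1* (53 and 123 cells). In the *Mepe* and *Dmp1* cluster *Ihh* was lower with calcitriol, 27 UMIs (120 CPM [78.8, 174]) against 44 UMIs (51.1 CPM [37.2, 68.7]), a log2 ratio of −1.22 [−1.95, −0.48]. In the *Tnfrsf11b* and *Spp1* cluster it was higher, 2 UMIs (2.55 CPM [0.309, 9.22]) against 74 UMIs (45.1 CPM [35.4, 56.6]), a log2 ratio of 4.14 [2.24, 7.22]. The value for the whole osteocyte-like class is therefore a sum of clusters that went opposite ways. Among osteocyte-like cells with at least 2 of *Dmp1*, *Mepe* and *Phex*, *Ihh* stood at 67.1 CPM [47.7, 91.7] in 34 untreated and 52.8 CPM [40.1, 68.3] in 78 calcitriol cells.

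*Col10a1* was present in these cells as well, and its level differed between the libraries. Of the 34 untreated cells with at least 2 of the osteocyte genes, 12 held an *Ihh* UMI and 9 of these also a *Col10a1* UMI, and of the 78 calcitriol cells 21 and 14. *Col10a1* itself stood at 17169 CPM in the 34 and 801 CPM in the 78 cells. Over the whole osteocyte-like class, the 6 hypertrophic markers, 1 of them past a log2 ratio of −1 and none at 0, summed to 12004 CPM untreated and 3212 CPM with calcitriol, and the 6 osteocyte markers, 4 past a log2 ratio of 1, to 2571 and 5903 CPM. The part of cartilage RNA in the osteocyte-like values of *Ihh* was not tested.

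**Figure D3:**
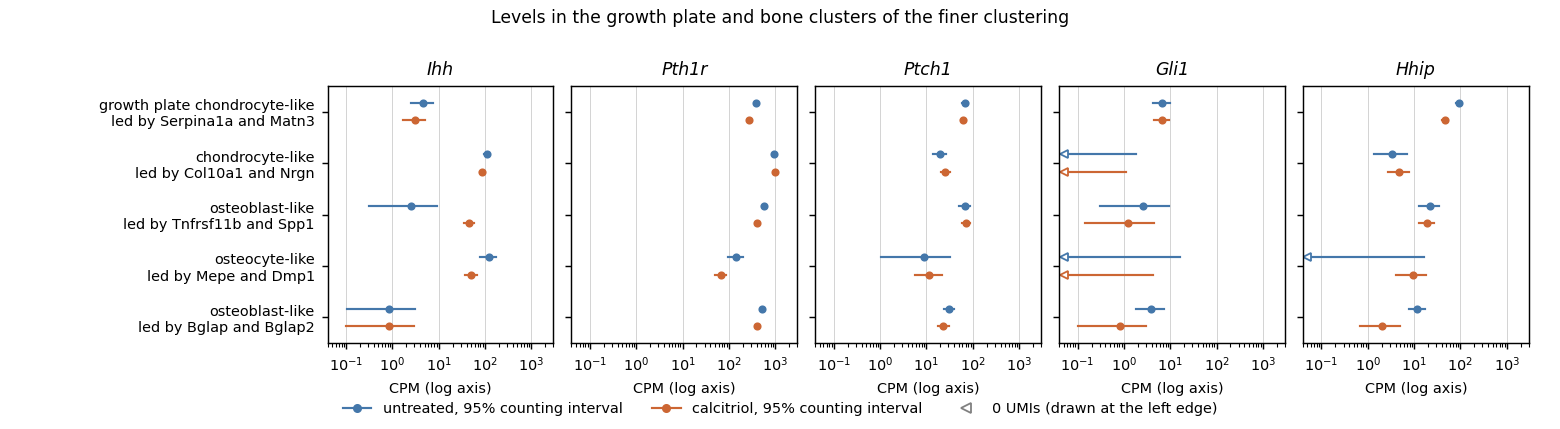
Levels (CPM, log axis) of *Ihh*, *Pth1r*, *Ptch1*, *Gli1* and *Hhip* in 5 clusters of the finer clustering, untreated in blue and calcitriol in orange, with exact 95% counting intervals and open triangles for 0 UMIs. *Ihh* and *Pth1r* are high together in the *Col10a1* cluster, where *Gli1* is at 0 UMIs in both libraries, and *Hhip* is highest in the *Serpina1a* and *Matn3* cluster.

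*Pth1r*, the receptor of PTHrP and parathyroid hormone, was the most abundant of the 7 genes. Growth plate chondrocyte-like cells gave 3066 UMIs (638 CPM [616, 661]) untreated and 4351 (567 CPM [550, 584]) with calcitriol, in 87.9% and 84.9% of the cells. Osteocyte-like cells gave 654 UMIs (409 CPM) and 938 (308 CPM), and osteoblast-like cells 2162 (327 CPM) and 2568 (386 CPM). Summed by class, the receptor was thus broad over mineralizing cells and highest in growth plate chondrocyte-like cells in both libraries. Within that class, cells with a *Col10a1* UMI stood at 1036 CPM untreated and 947 CPM with calcitriol. Those without it stood at 388 and 282 CPM, untreated above and with calcitriol below osteoblast-like cells. As whole classes, osteoblast-like and osteocyte-like cells changed places between the libraries. Osteocyte-like cells with at least 2 of *Dmp1*, *Mepe* and *Phex* stood at 231 CPM [193, 273] untreated and 201 CPM [176, 230] with calcitriol, below osteoblast-like cells in both. Those with none of these genes stood at 528 and 314 CPM.

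The other chondrocyte classes held less *Pth1r* with calcitriol. In superficial articular chondrocyte-like cells 416 UMIs (121 CPM) were counted untreated and 668 (69.3 CPM) with calcitriol, a log2 ratio of −0.80 [−0.98, −0.62]. In *Notum* and *Sfrp5* chondrocyte-like cells 243 UMIs (158 CPM) and 315 (81.6 CPM) were counted, a log2 ratio of −0.95 [−1.20, −0.70]. Fibroblast-like cells gave 67 UMIs (12.5 CPM) and 52 (5.89 CPM), a log2 ratio of −1.08 [−1.64, −0.54], so in the class with the most *Pthlh* untreated the receptor was scarce. Endothelial-like cells stood at 5.39 and 5.07 CPM, and the erythroid-like level was at most 2.20 CPM.

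The osteoblast clusters went opposite ways. In cells led by *Postn*, a matrix gene of the periosteum, and *Tnn*, *Pth1r* was counted at 998 UMIs (227 CPM) untreated and 1623 (374 CPM) with calcitriol, a log2 ratio of 0.72 [0.61, 0.83]. In cells led by *Bglap* and *Bglap2*, which encode osteocalcin of mature osteoblasts, it was counted at 1164 UMIs (526 CPM) and 945 (409 CPM), a log2 ratio of −0.36 [−0.49, −0.24]. Of all genes tested in the cluster, 93.9% had a lower ratio than *Pth1r* in the *Postn* cells and 26.5% in the *Bglap* cells. The *Bglap* value was thus within the 10th to 90th percentile (−0.63 to 0.50). With calcitriol the levels of the clusters lay close together, and untreated they were far apart. At the finer clustering, *Pth1r* was 944 and 979 CPM in the *Col10a1* cluster, 386 and 269 CPM in the *Serpina1a* and *Matn3* cluster, and 142 and 66.3 CPM in the *Mepe* and *Dmp1* cluster.

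*Ptch1*, the hedgehog receptor and itself a target, was spread over all classes but erythroid-like cells. Among the named classes, *Notum* and *Sfrp5* chondrocyte-like cells were highest, with 106 UMIs (68.9 CPM) untreated and 298 (77.2 CPM) with calcitriol. Growth plate chondrocyte-like cells gave 259 UMIs (53.9 CPM) and 383 (49.9 CPM), and superficial articular chondrocyte-like cells 134 (38.8 CPM) and 356 (36.9 CPM). In all 3 the interval of the ratio included 0. At the finer clustering, the superficial articular clusters went opposite ways. The cells led by *Cytl1* and *Inhba* gave 116 UMIs (45.4 CPM) and 181 (29.1 CPM), a log2 ratio of −0.64 [−0.98, −0.29]. Those led by *Msmp* and *Cytl1* gave 33 and 195 UMIs, a log2 ratio of 0.65 [0.12, 1.23]. The *Cytl1* and *Inhba* cluster also held 31 cells of the *Notum* and *Sfrp5* class, so its value is not that of superficial cells alone. Osteoblast-like cells stood at 25.6 and 22.4 CPM, close to the 28.4 and 26.9 CPM of endothelial-like cells. The osteocyte-like class stood at 42.5 and 44.6 CPM. Its cells with at least 2 of *Dmp1*, *Mepe* and *Phex* held only 13.8 CPM [5.94, 27.1] untreated and 19.1 CPM [11.8, 29.2] with calcitriol. Those with none of these genes held 73.6 and 65.2 CPM.

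*Ptch1* was higher with calcitriol in tendon-like and fibroblast-like cells. Tendon-like cells gave 98 UMIs (20.3 CPM) and 230 (37.5 CPM), a log2 ratio of 0.88 [0.53, 1.24], and fibroblast-like cells 69 (12.9 CPM) and 166 (18.8 CPM), a log2 ratio of 0.55 [0.13, 0.97]. The tendon difference lay in the cluster led by *Angptl7* and *Kera*, a proteoglycan gene of tendon and cornea, with 43 UMIs (19.6 CPM) and 155 (59.4 CPM) and a log2 ratio of 1.60 [1.10, 2.12]. In the cluster led by *Igfbp2* and *Sfrp2* the log2 ratio was −0.17 [−0.77, 0.43]. In that *Angptl7* cluster, *Hhip* had a log2 ratio of −1.36 [−1.96, −0.79], which became 0.49 [−0.42, 1.44] without the top cell of each library, so its direction rested on single cells.

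*Smo*, the signal transducer Smoothened, was found in all connective tissue classes and was higher with calcitriol in the non-growth-plate chondrocytes. Superficial articular chondrocyte-like cells gave 169 UMIs (49.0 CPM) and 833 (86.4 CPM), a log2 ratio of 0.82 [0.58, 1.07], in 48.6% and 65.7% of the cells. *Notum* and *Sfrp5* chondrocyte-like cells gave 75 UMIs (48.7 CPM) and 357 (92.5 CPM), a log2 ratio of 0.92 [0.56, 1.30]. Growth plate chondrocyte-like cells stayed at 33.3 and 35.6 CPM, osteoblast-like cells at 51.9 and 46.9 CPM, and fibroblast-like cells at 46.2 and 41.0 CPM. Tendon-like cells stood at 53.9 and 63.5 CPM, a log2 ratio of 0.24 [0.01, 0.47]. Synovial lining-like cells held less, 25.5 and 21.8 CPM. Endothelial-like cells were lower still, at 12.6 and 8.24 CPM.

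*Gli1*, whose transcript is a common readout of hedgehog signalling, was the scarcest gene, with 145 UMIs among 4370 untreated and 207 among 3693 calcitriol cells. Superficial articular chondrocyte-like cells gave 31 UMIs (8.99 CPM) and 59 (6.12 CPM), and growth plate chondrocyte-like cells 22 (4.58 CPM) and 32 (4.17 CPM). The log2 ratio was −0.55 [−1.21, 0.12] in the former and −0.13 [−0.96, 0.72] in the latter, so a difference was not detectable at this depth. *Notum* and *Sfrp5* chondrocyte-like cells gave 6 UMIs (3.90 CPM) and 37 (9.58 CPM), and osteoblast-like cells 16 (2.42 CPM) and 4 (0.601 CPM). Both were under the 50 UMIs set for reading a ratio.

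Over both libraries, 32 of the 45 growth plate chondrocyte-like cells with a *Gli1* UMI (71.1%) also held *Hhip*, against 35.5% of the cells without *Gli1*. Within the libraries these shares were 72.2% against 43.9% untreated and 70.4% against 30.7% with calcitriol, and the median depth was 30085 UMIs with and 31047 without *Gli1*. Of the 70 superficial articular chondrocyte-like cells with *Gli1*, 57.1% held *Ptch1*, against 29.4% of those without, at median depths of 17949.5 and 14423.5 UMIs. These were 15 of 23 untreated and 25 of 47 calcitriol cells. At 2000 UMIs in every cell the shares were 12.9% and 6.11%. *Hhip* was held by 55.7% of the superficial cells with and 39.7% of those without *Gli1*, but by 14.3% and 13.6% at 2000 UMIs. At the finer clustering, all 54 *Gli1* UMIs of the growth plate chondrocytes lay in the *Serpina1a* and *Matn3* cluster (6.68 and 6.58 CPM) and none in the *Col10a1* cluster, where the exact upper limits were 1.78 and 1.11 CPM. Cells with a *Col10a1* UMI did not all lack *Gli1*. Of the 123 such growth plate cells, 8 held it (6.50%, 9 UMIs), against 14.4% of the 257 without *Col10a1*.

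*Hhip*, a hedgehog-induced gene whose protein binds and holds back the ligand, was lower with calcitriol in 6 of the 7 classes with at least 50 of its UMIs, all but osteocyte-like cells. Not all of these differences held without the top cell of each library, and in some classes few cells carried most of the sum. Superficial articular chondrocyte-like cells gave 685 UMIs (199 CPM [184, 214]) untreated and 429 (44.5 CPM [40.4, 48.9]) with calcitriol, from 216 and 598 cells. Growth plate chondrocyte-like cells gave 310 UMIs (64.5 CPM) and 242 (31.5 CPM). The log2 ratios were −2.16 [−2.34, −1.98] and −1.03 [−1.28, −0.79]. A UMI was found in 57.9% and 34.9% of the superficial cells and in 47.5% and 35.1% of the growth plate cells, while endothelial-like cells gave at most 1.00%.

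The lower level of *Hhip* with calcitriol did not rest on single cells or on 1 cluster of the superficial class. The 5 top cells carried 21.2% of the *Hhip* sum untreated and 12.6% with calcitriol, and without the top cell of each library the log2 ratio was −2.15. The *Cytl1* and *Inhba* cluster gave 181 and 43.3 CPM and the *Msmp* and *Cytl1* cluster 219 and 43.1 CPM. In the growth plate, the *Serpina1a* and *Matn3* cluster gave 304 UMIs (92.3 CPM) and 228 (46.9 CPM), a log2 ratio of −0.98 [−1.23, −0.72], and growth plate cells without *Col10a1* −1.0 [−1.27, −0.73]. Depth per cell was alike, with medians of 14536 and 14867.5 UMIs in the superficial and 32612 and 29967 in the growth plate class. Marker sums differed, with no marker at 0 UMIs. In the superficial class the 7 growth plate markers, 1 past a log2 ratio of 1 and 2 past −1, summed to 1389 CPM untreated and 820 CPM with calcitriol. In the growth plate class the 5 superficial articular markers, 3 past 1, summed to 518 and 3704 CPM. The part of a changed make-up of the classes in the *Hhip* values was not tested.

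The size of the difference in *Hhip* varied over the other classes. *Notum* and *Sfrp5* chondrocyte-like cells gave 83 UMIs (53.9 CPM) and 154 (39.9 CPM), a log2 ratio of −0.44 [−0.83, −0.03]. Without the top cell of each library it was −0.36 [−0.78, 0.08]. Fibroblast-like cells gave 55 UMIs (10.2 CPM) and 59 (6.68 CPM), a log2 ratio of −0.62 [−1.17, −0.06]. In that class 5 cells held 63.6% of the UMIs untreated and 64.4% with calcitriol. Tendon-like cells gave 103 UMIs (21.4 CPM) and 52 (8.47 CPM), but 1 untreated cell held 65 of the 103, and without the top cell of each library the log2 ratio was −0.18 against −1.33. Synovial lining-like cells gave 84 UMIs (179 CPM) in 25 untreated and 23 (9.84 CPM) in 94 calcitriol cells, with 94.0% of the untreated UMIs in 5 cells. Osteocyte-like cells stood at 12.5 and 14.1 CPM. Beside the synovial value, the 7 tendon markers, with *Kera*, *Angptl7* and *Mkx* at 0 UMIs untreated and *Kera* with calcitriol, summed to 810 CPM untreated and 53.5 CPM with calcitriol and the 5 neutrophil markers, with *S100a8*, *S100a9* and *Retnlg* at 0 untreated and *Camp* with calcitriol, to 4.25 and 374 CPM, and their part in it was not tested.

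Side by side, the summed superficial articular class had less *Hhip* and more *Pthlh* and *Smo* with calcitriol, while *Ptch1* and *Gli1* had ratio intervals that included 0. Among cells led by *Cytl1* and *Inhba*, a finer cluster with some *Notum* and *Sfrp5* chondrocyte-like cells, *Hhip* (−2.06) and *Ptch1* (−0.64) were both lower. There *Gli1* stood at −0.70 [−1.52, 0.15]. In those led by *Msmp* and *Cytl1*, *Hhip* was lower (−2.34) and *Ptch1* higher (0.65), with *Gli1* at 9 and 28 UMIs. In growth plate chondrocyte-like cells *Hhip* was lower while *Ptch1*, *Gli1* and *Smo* had ratio intervals that included 0.

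**Figure D4:**
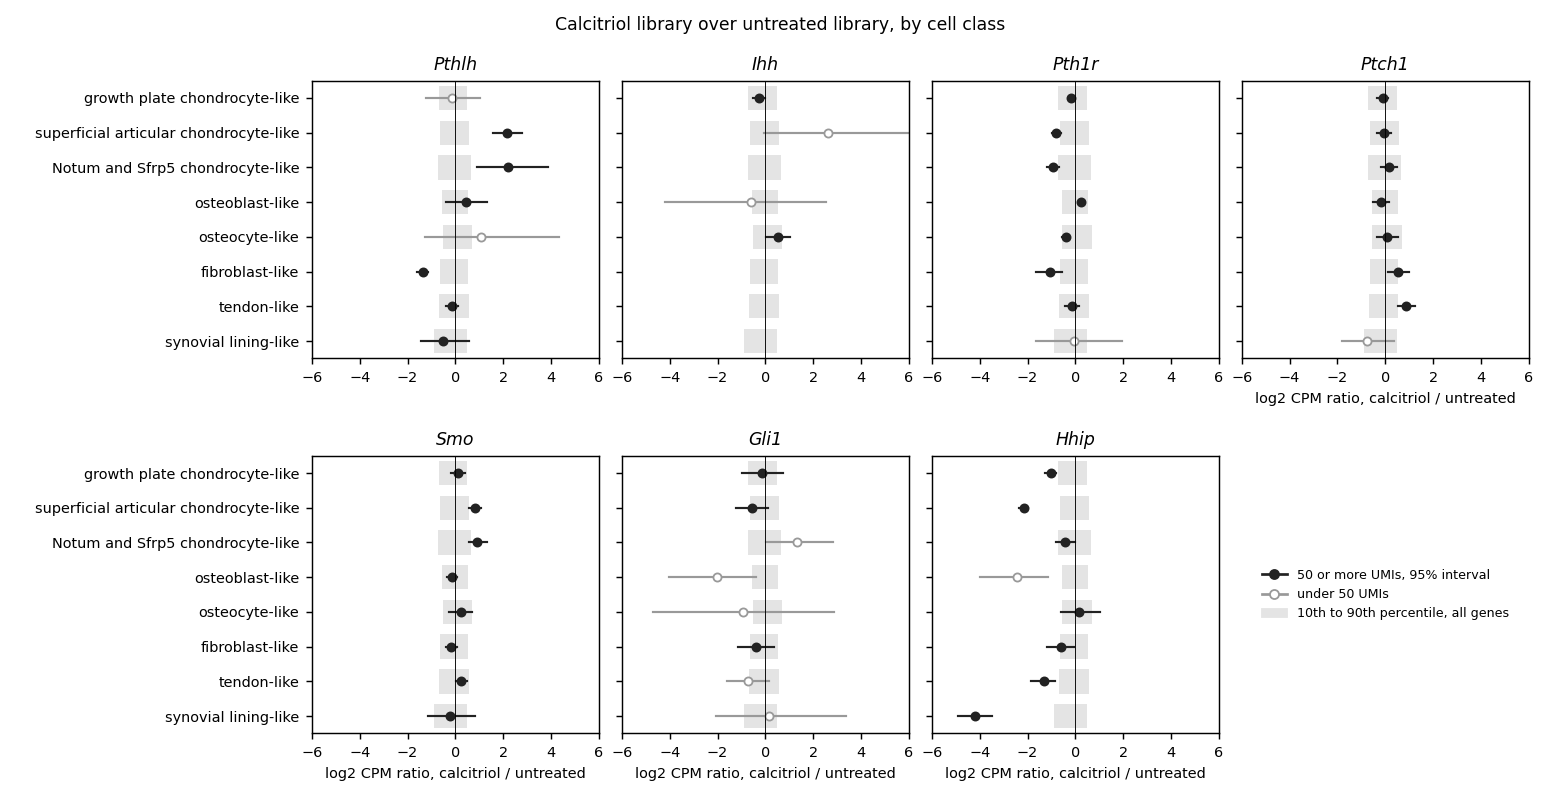
Log2 ratio of CPM, calcitriol over untreated, for each gene in 8 cell classes, with exact 95% counting intervals. Filled points have at least 50 UMIs in both libraries together, open points fewer, no point is drawn where a library held 0 UMIs, an interval running past the axis is clipped, and grey bands span the 10th to 90th percentile of all genes with 50 UMIs. *Pthlh* lies right of the band in superficial articular and *Notum* and *Sfrp5* chondrocyte-like cells and left of it in fibroblast-like cells, and *Hhip* lies left of it in superficial articular, growth plate, tendon-like and synovial lining-like cells.

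The ratios were read against all genes with at least 50 UMIs in the class. In superficial articular chondrocyte-like cells, 6.82% of 9120 genes had a log2 ratio of at least 1 or at most −1 (3.31% up and 3.51% down), and of the 6 members tested 1 was up (*Pthlh*, above 99.6% of the genes) and 1 down (*Hhip*, with 0.428% of the genes below it). In growth plate chondrocyte-like cells the share was 7.04% of 9258 genes (3.01% up and 4.03% down), and of 6 members tested only *Hhip* was past the limit, downward, at a percentile of 3.59. The members' median log2 ratio was −0.31 against −0.05 for all genes in the first class and −0.15 against −0.13 in the second.

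In fibroblast-like cells the share past the limit was 6.01% (2.92% up and 3.09% down), and of 6 members tested 2 were down, *Pthlh* and *Pth1r*. In *Notum* and *Sfrp5* chondrocyte-like cells it was 8.99% (4.66% up and 4.33% down), and of 5 members 1 was up, *Pthlh*. In tendon-like cells (7.14%, with 3.02% up and 4.11% down) *Hhip* alone of 5 members was down, and in synovial lining-like cells (10.6%, with 3.77% up and 6.79% down) *Hhip* alone of 3. In osteoblast-like cells it was 5.99% (3.41% up and 2.58% down) with none of 4 members past the limit, and in osteocyte-like cells 7.42% (4.62% up and 2.80% down) with none of 5. With so few members in each class, the counts describe single genes and not the pathway.

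Ligand and receptor of PTHrP were found together in some cells. In superficial articular chondrocyte-like cells, *Pth1r* was held by 9 of the 19 untreated cells with *Pthlh* (47.4%) and by 44.7% of those without. With calcitriol it was held by 35 of 101 (34.7%) and by 31.6%. In fibroblast-like cells the shares were 8.16% with and 14.2% without *Pthlh* untreated, and 6.36% and 7.22% with calcitriol. These shares lay close together in all but the untreated fibroblast-like cells, where only 8 cells held both.

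The other genes of the pathways were followed in 6 lists of 52 genes. The 10 genes of hedgehog transduction, among them *Gli2*, *Gli3* and *Sufu*, gave no gene with 50 UMIs past the limit in the chondrocyte, osteoblast and fibroblast classes. Those tested were 4 in growth plate, 7 in superficial articular and 2 in *Notum* and *Sfrp5* chondrocyte-like cells, 6 in osteoblast-like and 8 in fibroblast-like cells. In osteocyte-like cells none of the list reached 50 UMIs, so none could be tested. In the growth plate, *Gli3*, which encodes a GLI factor that mainly represses, was the highest of the list at 21.0 and 24.2 CPM. The list's median log2 ratio there over its 4 genes tested was −0.06 against −0.13 for all genes.

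Of the genes of hedgehog release and reception, none passed the limit in superficial articular or fibroblast-like cells (0 of 3 and 0 of 1 release genes tested, 0 of 3 and 0 of 4 co-receptor genes). In growth plate chondrocyte-like cells, 2 of 5 genes tested in the list of ligands and their release were lower with calcitriol, *Scube2* (96 and 57 UMIs, 20.0 and 7.43 CPM) and *Scube3* (40 and 12 UMIs, 8.33 and 1.56 CPM), which encode secreted proteins of a family that aids hedgehog release. *Scube1* was the highest of the list there, at 68.9 and 75.9 CPM. The co-receptor gene *Gas1* was higher, with 15 and 98 UMIs (3.12 and 12.8 CPM) in the growth plate, 46 and 370 (29.9 and 95.8 CPM) in *Notum* and *Sfrp5* chondrocyte-like and 13 and 74 (8.13 and 24.3 CPM) in osteocyte-like cells. The co-receptor gene *Boc* was higher in the last 2 of these classes, with log2 ratios of 1.21 and 1.23. In each of these classes 3 co-receptor genes were tested. The shares of all genes up were 3.01% in growth plate, 4.66% in *Notum* and *Sfrp5* chondrocyte-like and 4.62% in osteocyte-like cells. The share of all genes down in growth plate chondrocyte-like cells was 4.03%.

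*Gas1* was itself most abundant in superficial articular chondrocyte-like (536 and 984 CPM) and fibroblast-like cells (726 and 727 CPM), where it did not pass the limit. Beside its values in the growth plate, the 5 superficial articular markers summed to 518 CPM untreated and 3704 CPM with calcitriol, and in *Notum* and *Sfrp5* chondrocyte-like cells to 1139 and 3063 CPM. Whether RNA or cells of the superficial class entered the *Gas1* values was not tested.

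In osteoblast-like cells, *Scube2* was lower (69 and 24 UMIs, 10.4 and 3.61 CPM), and *Hhat*, which encodes the enzyme that attaches palmitate to hedgehog ligands, and the co-receptor gene *Cdon* were higher, with log2 ratios of 1.58 [0.86, 2.34] and 1.24 [0.53, 1.99]. There 4 release genes (1 up, 1 down) and 4 co-receptor genes (1 up) were tested, against 5.99% of all genes past the limit. Of the list of other hedgehog targets, *Foxf1* was higher in superficial articular chondrocyte-like cells (8 and 51 UMIs, log2 ratio 1.19 [0.10, 2.48]), 1 of 3 genes tested. Of all genes in that class 3.31% were up. *Ccnd1*, the cyclin D1 gene, was lower in fibroblast-like cells (597 and 379 UMIs, 111 and 42.9 CPM) and in *Notum* and *Sfrp5* chondrocyte-like cells (144 and 71.0 CPM), 1 of 2 genes tested in either class. Of all genes 3.09% were down in the former class and 4.33% in the latter. In the growth plate *Ccnd1* stood at 227 and 151 CPM and *Foxc2* at 17.9 and 15.4 CPM, neither past the limit.

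On the PTHrP side, *Ramp2*, an accessory protein of G protein-coupled receptors, was higher with calcitriol in growth plate chondrocyte-like (14 and 62 UMIs, 2.91 and 8.08 CPM), osteoblast-like (71 and 235, 10.7 and 35.3 CPM) and osteocyte-like cells (6 and 67, 3.75 and 22.0 CPM). Beside these values, the 6 endothelial markers summed to 18.3 and 35.2 CPM in osteoblast-like cells, with *Kdr* and *Emcn* at 0 UMIs untreated. They summed to 16.3 and 45.3 CPM in osteocyte-like cells, with *Cdh5*, *Kdr* and *Egfl7* at 0 untreated. In growth plate chondrocyte-like cells they summed to 16.0 and 15.1 CPM, with *Emcn* at 0 untreated. Their part in the *Ramp2* values was not tested. *Ramp2* was the only gene of the list of ligands and receptors with 50 UMIs in any of the 6 classes. Of the 19 genes of PTHrP receptor signalling, 15 were tested in the growth plate, of which 1 was up and none down (3.01% and 4.03% of all genes), with a median log2 ratio of 0.36 against −0.13 for all genes. That gene was *Tnfsf11* (RANKL, the osteoclast cytokine), with 2 UMIs (0.416 CPM) untreated and 117 (15.3 CPM) with calcitriol, and it is also a known vitamin D target.

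*Tnfsf11* was higher in fibroblast-like cells as well (3 and 70 UMIs, 0.559 and 7.92 CPM). *Adcy7*, an adenylate cyclase gene, was lower there (87 and 49 UMIs), its relative *Adcy9* was higher in superficial articular chondrocyte-like cells (13 and 77 UMIs), and *Sik2*, a kinase gene under control of cyclic AMP, was lower in osteocyte-like cells (65 and 57 UMIs, 40.7 and 18.7 CPM). Of the list, 18 genes were tested in fibroblast-like (1 up, 1 down), 16 in superficial articular (1 up) and 11 in osteocyte-like cells (1 down). The shares of all genes past the limit in these classes were 6.01%, 6.82% and 7.42%. The named genes are single genes and not a response of the list. *Gnas*, the gene of the stimulatory G protein subunit that couples PTH1R to adenylate cyclase, was the highest of the list in growth plate chondrocyte-like cells, at 1531 and 990 CPM, and *Prkar1a* followed at 125 and 113 CPM. Neither passed the limit.

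Other targets of vitamin D served as a check of the treatment. *Spp1* (osteopontin) was higher with calcitriol in osteoblast-like cells, at 9769 and 46666 CPM, and *Vdr*, the vitamin D receptor gene, at 26.3 and 74.1 CPM. In growth plate chondrocyte-like cells *Spp1* stood at 1200 and 3432 CPM, a log2 ratio of 1.52 [1.48, 1.56], and *Vdr* at 11.7 and 10.9 CPM. *Spp1* was lower only in synovial lining-like cells (213 and 162 CPM) and was higher in erythroid-like cells too. There it stood at 19.6 and 69.2 CPM, a log2 ratio of 1.82 [1.61, 2.04]. The part of RNA from other cells in the *Spp1* values was not tested. In superficial articular chondrocyte-like cells *Vdr* stood at 2.90 and 1.14 CPM. *Cyp24a1*, the enzyme that degrades calcitriol, was found at 6.24 CPM in osteocyte-like cells with calcitriol and at 0 UMIs untreated.

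Across 44 points, each a cluster of at least 20 cells in 1 library, the genes whose log2(CPM + 10) ran most like each member were counted among 11900 genes by Pearson's r, as a description, since the points share libraries and clusters. *Pth1r* ran most like *Alpl* (0.95), *Ibsp* (0.91) and *Sp7* (0.90), genes of mineralizing bone. *Ihh* ran most like *Krtap17-1* (0.96), *Cds1* (0.94) and *Foxa2* (0.90), and *Hhip* most like *Bpifc* (0.89), *Zfp385b* (0.86) and *Gm17455* (0.85). The values for *Pthlh* were 0.86 with *Ahnak2*, 0.85 with *Lbp* and 0.83 with *Ntn1*. Those for *Ptch1* were 0.93 with *Ell*, 0.91 with *Lrrfip1* and 0.91 with *Nfatc1*.

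*Smo* ran most like *Cd302* (0.95), *Vasn* (0.94) and *Casc4* (0.94), and *Gli1*, with the fewest UMIs, most like *Dixdc1* (0.79), *Slc27a4* (0.78) and *Il16* (0.78). Among the members, *Ptch1* and *Smo* were most alike (0.81), *Pth1r* and *Ihh* stood at 0.61, and *Pthlh* with *Pth1r* at −0.06 and with *Ihh* at −0.18.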

How the data were processed

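Femoral cells of untreated and calcitriol-injected mice were measured by droplet single-cell RNA sequencing of transcript 3′ ends. Per library, the authors deposited filtered UMI counts from Cell Ranger 4.0.0 (mm10), not normalized. Their notes also name Seurat 3.2.2.

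Only barcodes with 200 or more genes were used, and a first clustering was run within each library. Clusters with a median mitochondrial share above 10%, under 1000 genes and under 2000 UMIs, past all 3 limits, were removed. The sources do not settle whether all or any of the limits applied. The remaining cells were integrated by Seurat 5.3.0 anchors (R 4.3.3) on 2000 variable genes without the members and 52 pathway genes, and clustered on 30 components at resolution 0.8 (23 clusters), and at 1.2 (28 clusters, the finer clustering).

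A marker was counted with at least 50 UMIs, a UMI in at least 10% of a cluster's cells and a level at least 2-fold that of all other clusters together (pseudocount 10 CPM). A cluster took the class with the largest share of its markers counted, at least 3. This rule was written with the clusters in view, and the members and lists were chosen with earlier results of these data known. Clusters that tied among chondrocyte subclasses joined the growth plate class. Doublets were scored against simulated pairs, called at an assumed rate of 0.8% per 1000 cells and kept.

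Levels were summed UMIs over all UMIs of the cells. Intervals were exact (Poisson, conditional binomial, Clopper-Pearson) at 95% and cover counting error only. A gene was tested against the limit, a log2 ratio of at least 1 or at most −1, with at least 50 UMIs in a class. A pathway gene was named if past it with an interval that left out 0, or if among the 2 highest of its list in the class where its member is highest. The 3 genes most like each member, of those with at least 200 UMIs, and 4 vitamin D targets were named too. Gene positions came from GENCODE and promoters from RefSeq. Python 3.11.15, numpy 2.4.6, scipy 1.17.1, pandas 2.3.3, scikit-learn 1.9.0 and matplotlib 3.10.9 were used. The ratio script was tested on simulated data. Thinning to 2000 UMIs per cell left out 291 cells. Other alternatives were no integration, 20 components, resolutions 0.5 and 1.2, the members among the variable genes, the other reading of the filter, doublet removal, classes by marker UMIs, the mean of cells' own CPM, haemoglobin and mitochondrial genes taken out of the totals, 2 UMIs as the limit for a cell, and cells of at least 5000 UMIs for genes in the same cell.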

Additional observations from a re-analysis of the deposited data

How the results depend on the processing

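The log2 ratios of 8 values were recomputed under each alternative, and 86 of 96 alternative values stayed within the counting interval of the reported value, which is narrow for abundant genes. *Pth1r* in growth plate chondrocyte-like cells (−0.17) was −0.09 without integration and −0.31 as the mean of the cells' own CPM. At 2000 UMIs per cell, *Ihh* in the growth plate turned from −0.26 to 0.58 [−0.67, 1.97] and *Ptch1* there was −0.36 [−1.26, 0.55]. *Smo* in superficial articular chondrocyte-like cells was 0.44 [−0.17, 1.10] at that depth. *Pthlh* in the superficial class was 1.48 when cells were chosen by marker UMIs. *Hhip* there was −2.48 as the mean of the cells' own CPM and −2.51 when thinned. *Pthlh* in fibroblast-like cells was −1.08 and −1.0 under the same alternatives. The cause of these shifts was not tested. *Ihh* in osteocyte-like cells (0.52) turned to −1.22 in the finer cluster of that name and to −0.35 in cells with at least 2 of *Dmp1*, *Mepe* and *Phex*, a choice made after seeing the data, as was leaving out the top cell. Of the other log2 ratios, 305 stayed within their interval and 35 moved, of the levels 152 and 40. All 32 shares of cells moved, at 2000 UMIs per cell or with 2 UMIs as the limit for a cell, since both alternatives count fewer cells.

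No paired analysis was possible because each group is 1 library. Depth limits *Gli1* most, with 145 and 207 UMIs in all kept cells. The mice of a group were pooled, so the spread between animals is unknown, and the group cannot be told apart from the library. The untreated mice were not injected and no vehicle group is described, so calcitriol cannot be told apart from the injection either.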
